A study of Mus musculus with 9 samples.

Results

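The 51 genes described here act in mitosis and cytokinesis. They were taken by symbol from a mouse PRO-seq table of gene-body read counts, in which all 51 were found among 24391 genes, and all 51 passed the filter on low counts that left 13825 genes to test. The list holds the kinases, cyclins and phosphatases of mitotic entry with the transcription factor FOXM1 (9 genes), the chromosomal passenger complex (4), the spindle checkpoint and the trigger of anaphase (8), centromere and kinetochore proteins (6), spindle motors and other microtubule-binding proteins (10), the central spindle and cytokinesis (7), and chromosome condensation and surface (7).

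PRO-seq maps RNA polymerase that is engaged in transcription by reading the nascent RNA it holds. The 9 libraries came from G1E (n = 2), an erythroid progenitor line without working GATA1, and from its derivative G1E-ER4, which expresses GATA1 fused to the oestrogen receptor's ligand-binding part. G1E-ER4 was left without hormone (called 0 h, n = 3) or kept in 100 nM estradiol for 13 h (n = 2) or 24 h (n = 2). All groups grew in medium with epoetin and kit ligand, G1E and the 0 h group had no hormone treatment, and no estradiol-treated G1E sample was analysed, so an effect of the hormone itself cannot be told apart from that of GATA1-ER. Both lines are single cultured lines and the labels do not say that replicates were separate cultures, so p-values measure the spread between these libraries.

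Dividing cells switch on a shared set of genes late in the cell cycle. Cyclin B with the kinase CDK1 drives entry into mitosis, CDC25 phosphatases activate that kinase, and Polo-like and Aurora kinases order the later steps. The spindle checkpoint holds back the anaphase-promoting complex and its activator CDC20 until each kinetochore is attached. Many promoters of these genes carry a cell cycle genes homology region (CHR) near the start together with upstream CCAAT boxes, which bind the DREAM and MMB complexes, FOXM1 and NF-Y. Maturing erythroid cells go through a last series of divisions and then leave the cell cycle.

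Gene-body reads summed to between 37830789 and 139945759 per library, and reads in dREG peaks, where polymerase initiates, to between 15394427 and 59952454. The 51 genes took 0.503% to 0.827% of gene-body reads. Reads over Gata1 ran from 164 to 301 CPM in all 9 libraries, G1E included, and cannot check the genotype, since the labels do not say which bases of the gene were altered. Erythroid marker genes (10 genes) summed to 1709 to 2486 CPM per library in G1E and 1256 to 1416 at 0 h. Their sums were 1084 to 1133 at 13 h and 2122 to 2237 at 24 h. A sum follows the genes with the most reads, and single markers went both ways. Against 0 h, the edgeR test described below called 5 of the 10 higher and 3 lower at 13 h. Of all tested genes 20.1% and 20.9% were called. At 24 h it called 6 higher and 2 lower, against 29.0% and 30.7% of all tested genes. Lymphocyte markers (8 genes) summed to at most 1.80 and granulocyte and monocyte markers (7 genes) to at most 1.22. Megakaryocyte markers (8 genes) summed to 59.9 to 66.4 in G1E, 37.8 to 53.7 at 0 h, 131.6 to 135.05 at 13 h and 73.3 to 116 at 24 h. The part of these markers in the results below was not tested. Counts of reads carry no molecular identifiers, so intervals cover counting error only.

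Levels (CPM) are read counts set to a common library size after edgeR's TMM factors, which place each library on the bulk of its genes. Changes are log2 fold changes of levels ± the standard error derived from edgeR's F statistic, and "rose" and "fell" are used where edgeR's quasi-likelihood test gave a Benjamini-Hochberg adjusted p below 0.05 over all genes. Gene lengths were not used, so levels are compared between libraries and not between genes.

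Promoters of genes among those with the largest changes at 24 h are shown first, because the CHR and CCAAT words were searched in them. RefSeq's promoter table (build GRCm38.p6) held 42 of the 51 genes. Each sequence runs from 120 bases before to 30 bases after the start, 5′ to 3′ on the strand of the gene, with motif matches on either strand in capitals. The CHR was searched as TTTGAA or TTCGAA, the CCAAT box as CCAAT, GATA as AGATAA or the word TGATAA, also AGATAG and the word TGATAG, and E2F as TTTCCCGC or the word TTTGGCGC, also TTCCCGCC and the word TTGGCGCC, where an E2F word can overlap a CCAAT box. The first 4 belong to genes that rose and the last 2 to genes that fell.
Cdc25b (chr2:131186828-131186977, plus strand): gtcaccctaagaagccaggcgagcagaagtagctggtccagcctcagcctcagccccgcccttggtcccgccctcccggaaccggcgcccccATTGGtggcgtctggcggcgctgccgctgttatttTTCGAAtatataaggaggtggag
Nusap1 (chr2:119618178-119618327, plus strand): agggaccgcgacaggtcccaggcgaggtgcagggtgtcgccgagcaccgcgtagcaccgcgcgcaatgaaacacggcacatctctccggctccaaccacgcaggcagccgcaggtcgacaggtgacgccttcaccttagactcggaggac
Cenpa (chr5:30666766-30666915, plus strand): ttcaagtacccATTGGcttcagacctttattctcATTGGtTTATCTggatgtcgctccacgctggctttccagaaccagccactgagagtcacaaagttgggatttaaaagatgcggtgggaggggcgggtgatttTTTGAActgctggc
Kif22 (chr7:127042391-127042540, minus strand): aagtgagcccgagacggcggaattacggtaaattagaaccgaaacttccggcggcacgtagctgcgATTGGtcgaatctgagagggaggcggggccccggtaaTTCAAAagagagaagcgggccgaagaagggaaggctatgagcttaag
Gas2l3 (chr10:89443938-89444087, minus strand): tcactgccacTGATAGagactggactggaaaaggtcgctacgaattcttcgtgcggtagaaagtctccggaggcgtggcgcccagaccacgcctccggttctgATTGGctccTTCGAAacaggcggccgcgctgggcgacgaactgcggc
Cdk1 (chr10:69352883-69353032, minus strand): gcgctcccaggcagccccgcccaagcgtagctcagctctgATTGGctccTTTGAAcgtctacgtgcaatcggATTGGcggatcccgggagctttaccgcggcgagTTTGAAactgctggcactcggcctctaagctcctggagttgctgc

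Of these 6 promoters, 5 hold a CHR word and a CCAAT box in the stretch shown, and Nusap1 holds neither. Over the whole 300-base window (250 before to 50 after a start), 34 of 42 genes (81.0%) had a CHR word against 20.2% of 17492 protein-coding genes in the same table. A CCAAT box stood in 33 of 42 (78.6%) against 42.3%, and both words in 31 of 42 (73.8%) against 9.2%. The GATA words were present in 11 of 42 (26.2%) against 29.5%, and the E2F words in 4 of 42 (9.5%) against 5.6%.

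Genes with a CHR word were found among those called higher, called lower and not called. A CHR word was found in 18 of the 23 genes of the table that rose at 24 h, in 3 of the 3 that fell, and in 13 of the 16 that were not called. In 30 of the 34 genes with a CHR word, a match lay within 50 bases of a start. This share was not computed for other genes, and genes with several listed starts had more chances of a match. These matches describe letters in the window and say nothing of which factors were bound.

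The comparison of 24 h with 0 h asks how these genes stood at the later time. Polymerase on 29 of the 51 genes rose and on 3 fell, against 29.0% of all tested genes that rose and 30.7% that fell, and 19 were not called. Cdc25b, Nusap1, Tpx2, Ccna2 and Cdc25c had the largest rises, while Cdk1, Espl1 and Gas2l3 fell. The median change of the 51 genes was 0.63, beside -0.07 over all genes. In bulk samples, more cells in late cell-cycle phases and more transcription per cell cannot be told apart.

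**Figure D1:**
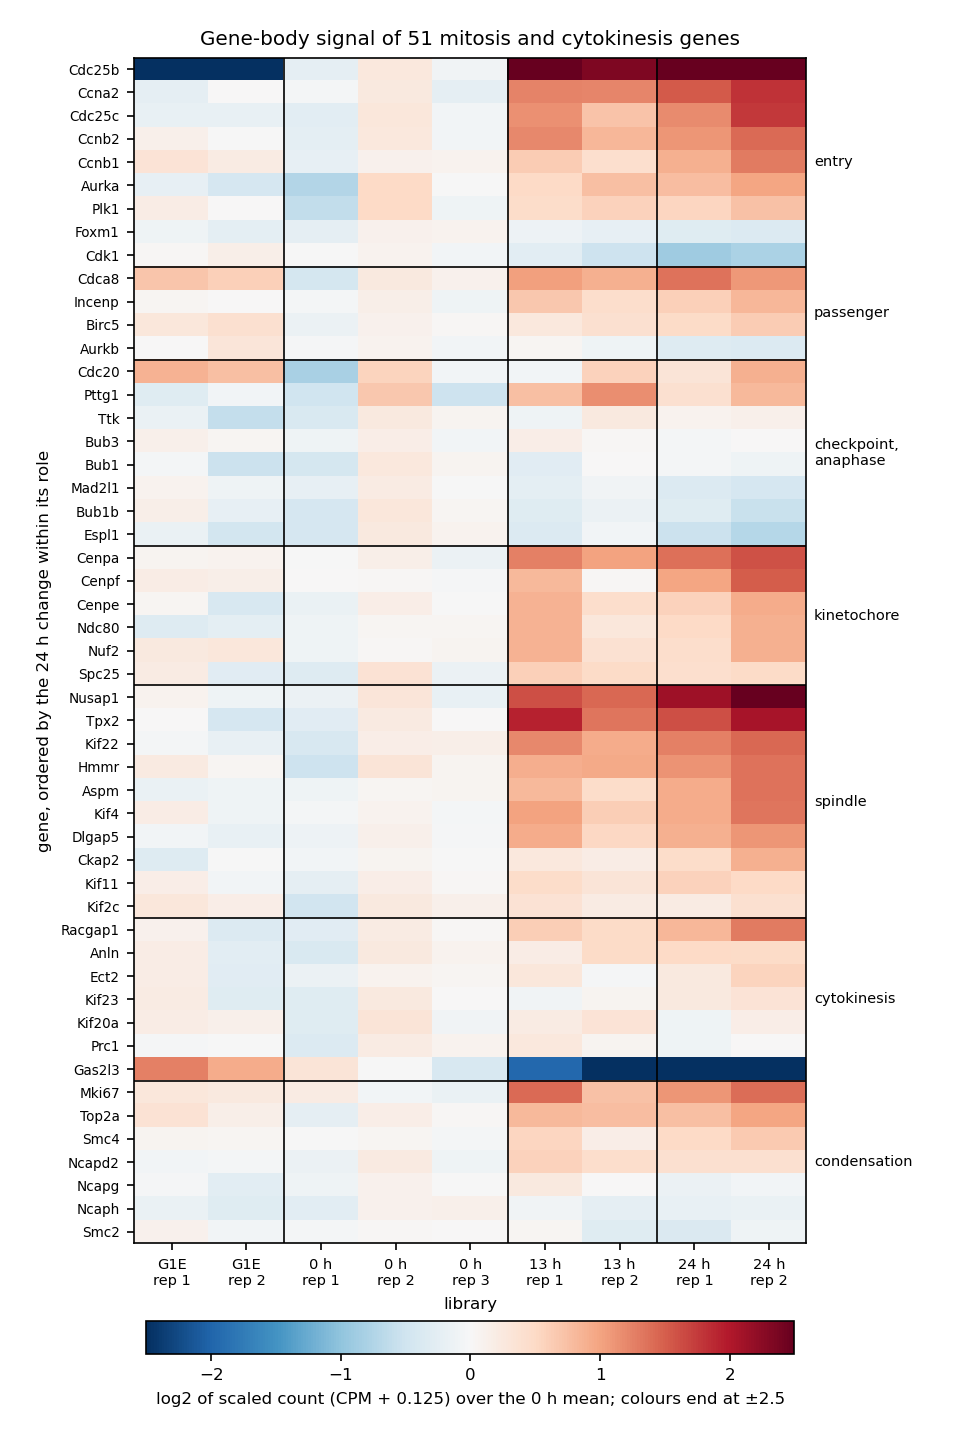
Heat map of the 51 genes (rows, grouped by role and ordered by their 24 h change) in the 9 libraries (columns). Colour gives log2 of scaled count (CPM with a small constant added) over the mean of the 0 h group, with colours ending at ±2.5. Most spindle and kinetochore genes are red in the 13 h and 24 h libraries, Cdk1 and Gas2l3 are blue there, and Cdc25b is blue in both G1E libraries. Cenpf is near white in 13 h replicate 2, Ckap2 is pale at 13 h and Kif2c is pale at both times.

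The change was already seen at 13 h, where 24 of the 51 genes rose and 2 fell, against 20.1% and 20.9% of all tested genes. The median was 0.50 beside -0.02 over all genes. Without 13 h replicate 1, in which 37 of the 51 genes were higher than in replicate 2, 13 of the 24 calls held. The 0 h and 13 h libraries of the same replicate number, whose library numbers are neighbours, had deviations that correlated at 0.459 and 0.444 over genes. With 2 libraries at 13 h their deviations are mirror images, so these 2 values are not independent. With the replicate number as a block 16 genes were called higher and 1 lower, and with the run of library numbers 18 and 1. The 13 h and 24 h comparisons share the 0 h libraries and are not independent of each other. Within the 0 h group, replicate 1 was the lowest of the 3 libraries for 39 of the 51 genes and replicate 2 the highest for 46.

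How many genes rose at 24 h turned on the scaling. With total counts in place of TMM factors, the median of all genes was -0.45 and that of the 51 genes 0.24, which is 0.70 above it (0.69 with TMM). Under that scaling 19 of the 51 rose and 12 fell, against 18.9% and 42.4% of all tested genes. Among all called genes 30.8% rose in place of 48.6%. The 3 genes that fell with TMM were among those 12, and the other 9 were Foxm1, Aurkb, Bub1b, Bub3, Mad2l1, Prc1, Ncapg, Ncaph and Smc2. The 10 rises lost under it were Aurka, Birc5, Cenpe, Ndc80, Nuf2, Kif11, Ckap2, Anln, Ncapd2 and Smc4. With runs of neighbouring library numbers as a block, 23 of the 51 were called higher and 3 lower. Of the 0 h libraries only replicate 3 shares a run with the 24 h libraries, so under this block the comparison rests on that 0 h library.

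Of the 9 genes of mitotic entry, 6 rose at 24 h and Cdk1 fell. Beside each role stand the shares of all tested genes, 29.0% higher and 30.7% lower at 24 h. At 13 h these shares were 20.1% and 20.9%. Cdk1, the catalytic partner of cyclins A and B, read 160.0 and 174 CPM in G1E, 155, 167 and 149 at 0 h, 131 and 110 at 13 h, and 85.0 and 90.5 at 24 h. The 13 h libraries lay below each 0 h library and the 24 h libraries below those. The fall was -0.39 ± 0.12 at 13 h (adjusted p = 0.0294) and -0.84 ± 0.13 at 24 h (adjusted p = 0.000252). The 13 h call was lost without any one 0 h library (adjusted p = 0.0536, 0.1 and 0.0535 without replicates 1, 2 and 3) and without 13 h replicate 2 (adjusted p = 0.191). It was also lost with the replicate number as a block (adjusted p = 0.0816) and with the run of library numbers (adjusted p = 0.0513), while the 24 h call held in each alternative.

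The cyclins that bind CDK1 went the other way. Ccnb1, cyclin B1, read 95.5 and 86.9 CPM in G1E, 64.6, 80.3 and 79.8 at 0 h, 116 and 99.7 at 13 h, and 139 and 184 at 24 h, with no overlap between 0 h and either later group. It rose by 1.11 ± 0.16 at 24 h (edgeR adjusted p = 0.000186). Ccna2, cyclin A2, read 60.2, 73.5 and 53.0 CPM at 0 h and 180.1 and 217 CPM at 24 h, a rise of 1.68 ± 0.16. Ccnb2, cyclin B2, rose by 1.27 ± 0.18.

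Cdc25b, a phosphatase that activates CDK1-cyclin complexes, had the largest rise of the list. It read 0.751 and 0.483 CPM in G1E, 9.39, 13.3 and 10.4 at 0 h, 71.7 and 55.8 at 13 h, and 95.4 and 79.9 at 24 h. Each group lay wholly above the one before it. The change was 2.53 ± 0.21 at 13 h and 2.99 ± 0.21 at 24 h (edgeR adjusted p = 2.55e-06), a 7.95-fold rise from 0 h. Its relative Cdc25c rose by 1.51 ± 0.22 at 24 h.

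Of Aurka, Plk1 and Foxm1, Aurka alone was called. Aurka, the centrosome and spindle kinase, rose by 0.88 ± 0.28 at 24 h (edgeR adjusted p = 0.0200), a call lost without 24 h replicate 2 (adjusted p = 0.0922) and with total counts. Plk1, Polo-like kinase, read 23.3, 50.9 and 33.4 CPM at 0 h and 52.0 and 59.8 CPM at 24 h, and its change of 0.64 ± 0.26 missed the threshold (adjusted p = 0.0580). Foxm1, a transcription factor of late cell-cycle genes, read 29.3, 36.8 and 36.3 CPM at 0 h, 31.3 and 29.8 at 13 h, and 27.7 and 27.0 at 24 h. The 24 h libraries were below each 0 h library, by -0.32 ± 0.16, which did not pass (adjusted p = 0.0980).

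**Figure D2:**
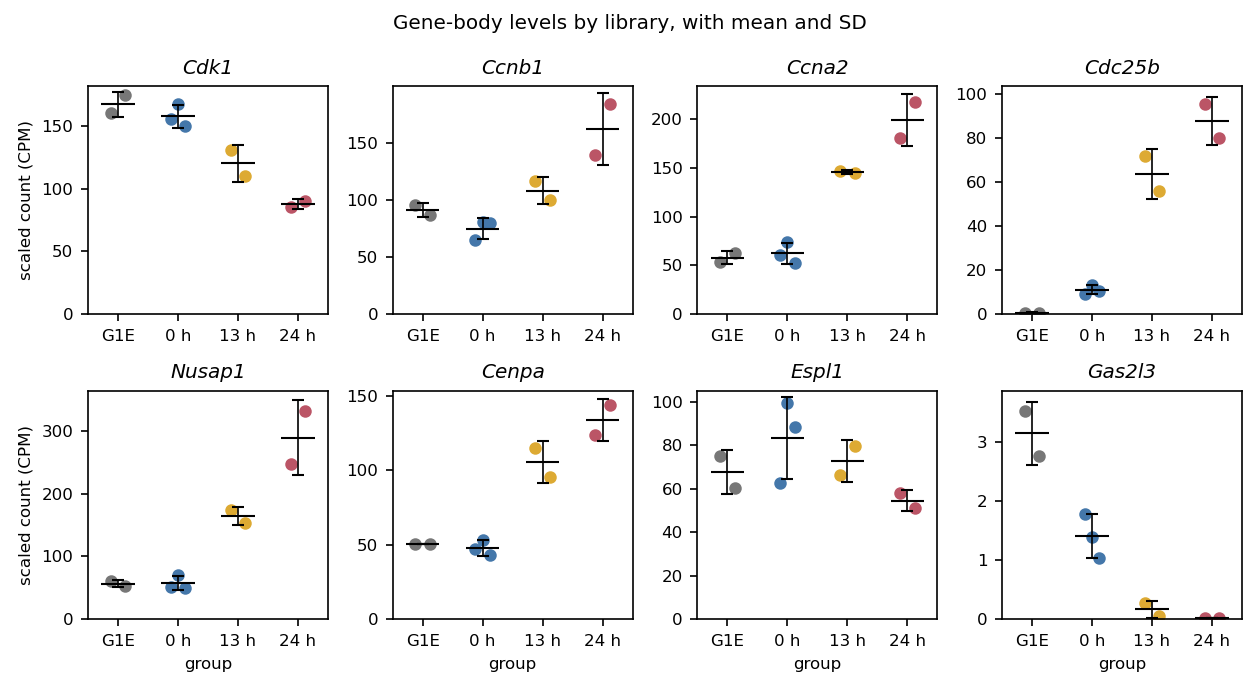
Gene-body levels (scaled count, CPM, vertical axis from 0) of 8 genes in each group (horizontal axis), with a point per library, a line at the group mean and bars of 1 SD. Cdk1, Espl1 and Gas2l3 are lower at 24 h than at 0 h, and the other 5 genes are higher, with Cdc25b near the axis in G1E.

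In the chromosomal passenger complex, which corrects kinetochore attachments and later guides cytokinesis, 3 of 4 genes rose at 24 h. Cdca8, which encodes borealin, read 128 and 120 CPM in G1E, 57.9, 93.5 and 85.0 at 0 h, 161 and 146 at 13 h, and 203 and 167 at 24 h. It rose by 1.23 ± 0.19 from 0 h to 24 h (edgeR adjusted p = 0.000293). Incenp, the scaffold, rose by 0.72 ± 0.13, and Birc5, survivin, by 0.56 ± 0.15, though the Birc5 call was lost without 24 h replicate 2 (adjusted p = 0.0620). Aurkb, the kinase of the complex, read 31.0, 33.4 and 30.1 CPM at 0 h, 32.7 and 29.2 at 13 h, and 25.3 and 24.7 at 24 h, a change of -0.33 ± 0.15 that did not pass (adjusted p = 0.0828).

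The spindle checkpoint and anaphase genes were the role with no rise called at 24 h, where 29.0% of all tested genes rose and 30.7% fell. At 13 h these shares were 20.1% and 20.9%. Counts in 8 genes are too few to read as a trait of the role. Of 8, edgeR called 0 higher and 1 lower (at an unadjusted p below 0.05 also 0 higher and 1 lower, and with DESeq2 0 and 1). At 13 h edgeR called 0 of 8 in either direction (1 higher at an unadjusted p below 0.05 and 1 higher with DESeq2, and 0 lower in each). The gene that fell was Espl1, separase, the protease that cuts cohesin at anaphase. It read 74.9 and 60.3 CPM in G1E, 62.7, 99.4 and 88.3 at 0 h, 66.0 and 79.6 at 13 h, and 57.8 and 50.9 at 24 h. Its change was -0.62 ± 0.20 (edgeR adjusted p = 0.0240), and the call was lost without 0 h replicate 2 (adjusted p = 0.0813), 0 h replicate 3 (adjusted p = 0.0647) or 24 h replicate 2 (adjusted p = 0.132) and with the replicate number as a block (adjusted p = 0.0909).

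The other 7 genes of this role were not called. Bub1 differed from 0 h by -0.08 ± 0.22 at 24 h, Bub3 by -0.01 ± 0.13 and Ttk, the MPS1 kinase, by 0.11 ± 0.21. Bub1b (BUBR1) had a difference of -0.42 ± 0.20 and Mad2l1 of -0.38 ± 0.19. Cdc20 (0.63 ± 0.35) and Pttg1, securin (0.63 ± 0.36), had the widest errors of the list after Gas2l3. Cdc20 read 14.7, 37.9 and 24.3 CPM in the 3 libraries of 0 h, so the spread there was 11.7 CPM (SD, n = 3) on a mean of 25.6.

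At the centromere and kinetochore, 5 of 6 genes rose at 24 h and 4 of 6 at 13 h. The 13 h calls of Cenpe, Ndc80 and Nuf2 were lost with the replicate number or the run as a block (edgeR adjusted p between 0.0513 and 0.0760). Without 13 h replicate 1 their 13 h changes were 0.47, 0.30 and 0.41, beside 0.67, 0.61 and 0.65 with all libraries. Cenpa, the histone H3 variant that marks centromeres, read 50.3 and 50.6 CPM in G1E, 47.4, 53.1 and 43.0 at 0 h, 115 and 95.6 at 13 h, and 124 and 144 at 24 h. It rose by 1.14 ± 0.14 at 13 h and by 1.49 ± 0.14 at 24 h (edgeR adjusted p = 1.45e-05). Cenpf, a farnesylated kinetochore protein, read 115.2, 115.5 and 111 CPM at 0 h, 200 and 117 at 13 h, and 224 and 327 at 24 h. The 13 h replicates of Cenpf lay far apart, and it was called at 24 h only (1.27 ± 0.21), and the difference between the times is given below.

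The outer kinetochore followed with smaller changes. Cenpe, a kinesin, rose by 0.76 ± 0.19, and Ndc80 and Nuf2, which form one arm of the microtubule-binding NDC80 complex, rose by 0.71 ± 0.18 and 0.68 ± 0.18. The value of their partner Spc25 was 0.45 ± 0.22, which did not pass (adjusted p = 0.102). The Ndc80 and Nuf2 calls at 24 h were lost without 24 h replicate 2 (adjusted p = 0.0779 and 0.0867).

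Spindle motors and microtubule-binding proteins held the largest share of rises, with 9 of 10 at 24 h and 8 of 10 at 13 h. Nusap1, which bundles spindle microtubules, read 60.1 and 53.0 CPM in G1E, 51.1, 69.7 and 49.7 at 0 h, 175 and 154 at 13 h, and 247 and 332 at 24 h. It rose 5.09-fold by 24 h (2.35 ± 0.18, edgeR adjusted p = 4.16e-06). Tpx2, which activates Aurora A on the spindle, read 146, 209 and 179 CPM at 0 h, 674 and 447 at 13 h, and 543 and 747 at 24 h, with a rise of 1.86 ± 0.23. The 13 h and 24 h levels of Tpx2 overlapped.

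The rest of this role rose by less. Kif22, a chromokinesin, rose by 1.35 ± 0.18, Hmmr by 1.26 ± 0.21, Aspm, a spindle pole protein, by 1.15 ± 0.15, and the chromokinesin Kif4 by 1.14 ± 0.17. Dlgap5 (1.00 ± 0.15), Ckap2 (0.69 ± 0.16) and Kif11, the motor that pushes spindle poles apart (0.55 ± 0.14), also rose. The Ckap2 call was lost without 24 h replicate 2 (adjusted p = 0.0626). Kif2c, a microtubule-depolymerising kinesin, had a difference of 0.30 ± 0.20 and did not pass.

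**Figure D3:**
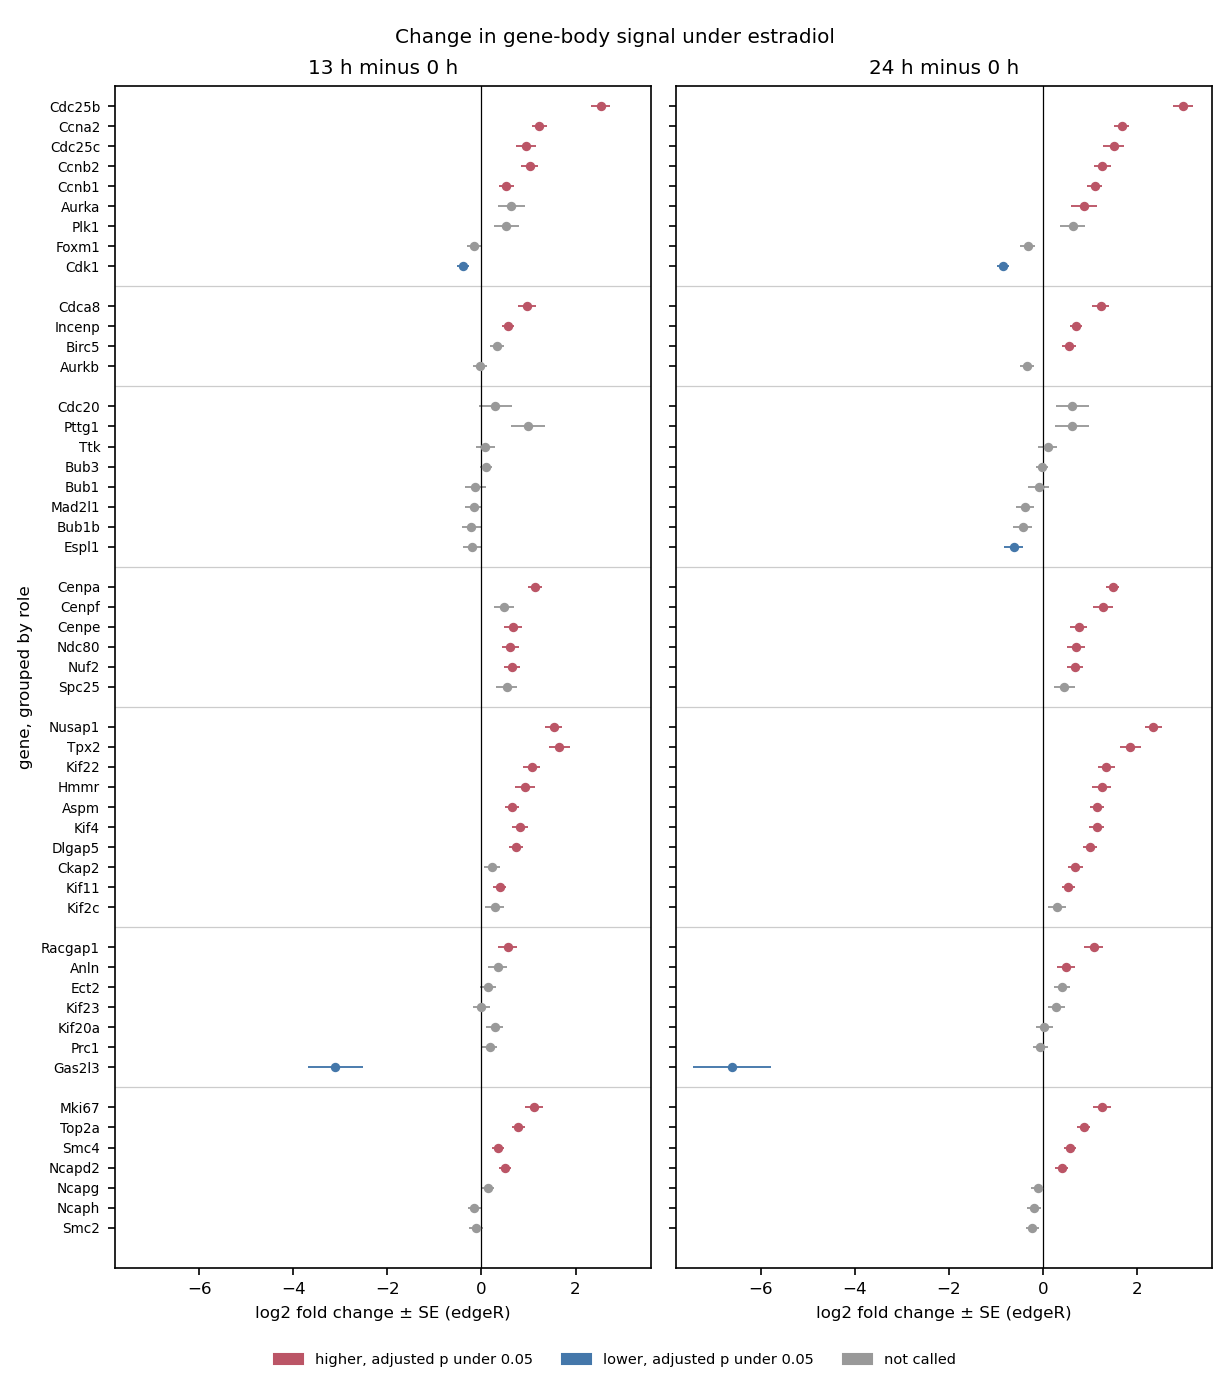
Log2 fold change ± SE of gene-body signal (horizontal axis) for the 51 genes (vertical axis, grouped by role in the order of the heat map) at 13 h (left) and 24 h (right) against 0 h. Red marks genes called higher, blue genes called lower and grey genes not called. The spindle genes lie right of 0 in both panels, the checkpoint genes lie around it, and Gas2l3 stands far to the left at a fitted value that depends on edgeR's prior count.

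Of 7 genes of the central spindle and cytokinesis, 2 (28.6%) rose and 1 fell at 24 h, and the share that rose was near the 29.0% of all tested genes. Racgap1, a subunit of centralspindlin, rose by 1.08 ± 0.20 (edgeR adjusted p = 0.000858), while its partner Kif23 had a difference of 0.29 ± 0.18 and Ect2, the exchange factor it recruits, of 0.41 ± 0.17 (adjusted p = 0.0614). Anln, anillin, rose by 0.49 ± 0.19 (adjusted p = 0.0490), a call lost without 0 h replicate 1 or 3, 13 h replicate 2 or either 24 h replicate (adjusted p between 0.0507 and 0.131). Prc1, the antiparallel microtubule bundler, had a difference of -0.05 ± 0.16, and Kif20a of 0.04 ± 0.19.

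Gas2l3, a protein that links actin and microtubules, had the largest change of the list. It read 3.54 and 2.78 CPM in G1E, 1.79, 1.40 and 1.05 at 0 h, 0.271 and 0.0583 at 13 h, and 0.0134 and 0.0124 at 24 h. The 24 h group held 2 reads against 402 at 0 h, a ratio of 103.3 for 0 h over 24 h (95% counting interval 28.4 to 856). The 13 h change was -3.11 ± 0.59 (edgeR adjusted p = 0.00228). No peak at its start was listed, so its promoter signal was not measured.

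Gas2l3 was singled out for its values, and 2 dREG peaks inside the gene were then read (mm9). The peak at chr10:88884900-88886901, 59.2% along the gene by the authors' position, held 448 reads at 0 h, 21 at 13 h and 0 at 24 h, which is at least 84.9-fold lower at 24 h than 0 h against a floor of 3 reads over the group. The peak at chr10:88878000-88879151, at 80.1%, held 52 reads at 0 h and 0 at 24 h, at least 9.86-fold lower. These peaks lie inside the gene, so the same reads can enter both counts. Not all of them can, since the first peak alone held 448 reads at 0 h and the gene body 402.

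Among genes of chromosome condensation and surface, 4 of 7 rose at both times. The 13 h calls of Ncapd2 and Smc4 were lost with the replicate number or the run as a block (edgeR adjusted p between 0.0546 and 0.165). That of Smc4 was also lost with total counts (adjusted p = 0.135) and without any one 0 h library (0.0780 to 0.121). Mki67, which coats mitotic chromosomes, read 384 and 371 CPM in G1E, 362, 299.5 and 282 at 0 h, 839 and 523 at 13 h, and 675 and 823 at 24 h. It rose by 1.25 ± 0.19 at 24 h (edgeR adjusted p = 0.000298). Top2a, topoisomerase II alpha, rose by 0.87 ± 0.14 and Smc4, a condensin ATPase, by 0.58 ± 0.13. The condensin subunits did not share a call. Ncapd2 rose by 0.40 ± 0.13, a call lost without 0 h replicate 1 or 3 or either 24 h replicate (adjusted p between 0.0664 and 0.0800), and Smc2 (-0.23 ± 0.14), Ncaph (-0.18 ± 0.15) and Ncapg (-0.11 ± 0.14) did not pass.

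Between 13 h and 24 h, few of the genes changed further. Of 51, 3 rose and 2 fell, against 11.7% and 12.5% of all tested genes. Nusap1 (0.82 ± 0.20, edgeR adjusted p = 0.0176), Cenpf (0.80 ± 0.24, adjusted p = 0.0368) and Ccnb1 (0.58 ± 0.18, adjusted p = 0.0390) rose. Cdk1 fell (-0.45 ± 0.14, adjusted p = 0.0369), and so did Gas2l3, with 25 reads at 13 h against 2 at 24 h, a ratio of 12.2 (95% counting interval 3.04 to 106).

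These late calls were fragile. None of the 3 rises was called without 13 h replicate 2 (adjusted p between 0.0899 and 0.174) or without 24 h replicate 2 (0.127 to 0.246), and those of Cenpf and Ccnb1 were also lost without either G1E library or 0 h replicate 2 or 3. Neither fall was called without 13 h replicate 1 (adjusted p = 0.201 for Cdk1 and 0.175 for Gas2l3) or without either 24 h library. None of the 5 calls held with runs of library numbers as a block (edgeR adjusted p between 0.132 and 0.455). The 13 h and 24 h libraries share no run, and that block called 0.16% of all tested genes higher and 0.27% lower. It therefore cannot decide on these 5 calls. With total counts 0 rose and 6 fell, against 4.64% and 22.3% of all tested genes. The median of the 51 genes was 0.15 with TMM and -0.14 with total counts, each 0.20 above the median of all genes.

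Few of these genes were called between uninduced G1E-ER4 and G1E. Of 51, 1 was higher at 0 h and 1 lower, against 7.88% and 9.58% of all tested genes. Cdc25b was the higher one, at 11.03 ± 2.05 CPM (SD, n = 3) against 0.617 ± 0.190 CPM (n = 2), a difference of 4.10 ± 0.27 (edgeR adjusted p = 6.35e-06). Cdca8 was lower by 0.65 ± 0.19 on the log2 scale (adjusted p = 0.0388), a call lost without either G1E replicate (adjusted p = 0.197 and 0.117) and without 0 h replicate 1 or 3 (adjusted p = 0.0578 and 0.0721), and with the replicate number or the run as a block (adjusted p = 0.103 and 0.330). The Cdc25b difference held in each alternative.

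Polymerase at the promoters was counted in dREG peaks that the authors placed at the start of a gene. The table lists 76 entries in 52 peaks for 50 of the 51 genes, where an entry is a whole peak or 1 strand of a peak. Some peaks name a neighbouring gene too, so an entry can hold a neighbour's polymerase. At 24 h, 28 entries rose and 4 fell, against 30.0% and 20.8% of 12973 tested entries at gene starts. Without 24 h replicate 2, 0 entries were called lower.

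The 3 entries with the largest rises carried the names of Tpx2, Cdc25b and Espl1, and the last was not at the start of Espl1 itself. The Tpx2 peak (chr2:152673150-152676101, mm9) held 29.0, 48.5 and 38.0 CPM at 0 h and 105 and 163 CPM at 24 h, a rise of 1.80 ± 0.24. The Cdc25b peak (chr2:131011650-131014501) held 0.740 and 0.464 CPM in G1E, 14.4, 20.4 and 12.5 at 0 h, and 56.9 and 50.98 at 24 h, a rise of 1.78 ± 0.24. The Espl1 entry, which rose by 1.62 ± 0.28, is the minus strand of a peak (chr15:102153550-102158401) that also names Pfdn5 and lies downstream of the peak at the start of Espl1 alone, where the difference was -0.14 ± 0.25.

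The entries that fell came from Bub1, Ccnb1, Cdk1 and Bub1b. The upstream strand at Bub1, which runs away from the gene, fell by 1.39 ± 0.46 on the log2 scale from a low level of 2.22, 3.98 and 2.53 CPM at 0 h to 1.39 and 0.807 CPM, a call lost without 0 h replicate 2 (adjusted p = 0.0762) or 24 h replicate 2 (adjusted p = 0.229). At Ccnb1 the strands of 1 peak moved apart. The upstream strand went from 30.3, 41.1 and 22.3 CPM at 0 h to 16.6 and 14.7 at 24 h (-0.997 ± 0.28), and the strand that enters the gene from 32.0, 46.4 and 41.4 to 45.4 and 80.2 (0.65 ± 0.24, adjusted p = 0.0362). The upstream call was lost without 24 h replicate 2 (adjusted p = 0.121), with the run as a block (0.0885) and with gene-body factors (0.0504). The sense call was lost without 0 h replicate 1 or 3 or 24 h replicate 2 (adjusted p = 0.109, 0.0811 and 0.351).

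The Cdk1 promoter fell with its gene body. Its sense strand read 67.2, 139 and 69.8 CPM at 0 h and 43.6 and 48.7 CPM at 24 h, a change of -0.99 ± 0.29 (edgeR adjusted p = 0.0114). Without either 24 h replicate the call was lost (adjusted p = 0.0873 and 0.102). The Bub1b peak fell by 0.79 ± 0.27 on the log2 scale, a call lost without G1E replicate 2, 0 h replicate 2 or 3 or either 24 h replicate.

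At 13 h, 21 entries rose and 0 fell, against 16.0% and 13.4% of tested entries at gene starts (edgeR, with 3 lower at an unadjusted p below 0.05 and 0 lower with DESeq2). Without 13 h replicate 1, 12 rose. Between 13 h and 24 h edgeR called 0 entries higher and 0 lower, against 7.85% and 5.10%. At an unadjusted p below 0.05, 0 were higher and 3 lower there, and DESeq2 called 0 and 1.

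In uninduced G1E-ER4 against G1E, 4 entries were higher and 0 lower, against 6.97% and 4.54% (edgeR, with 4 lower at an unadjusted p below 0.05 and 0 lower with DESeq2). The Cdc25b peak was the largest, at 4.61 ± 0.34 (edgeR adjusted p = 5.71e-07), in the same direction as its gene body. The sense strand of Ckap2 (0.90 ± 0.24), the peak of Ncapg and 1600023N17Rik (0.75 ± 0.23) and the Ttk peak (0.73 ± 0.23) were the others, the last at an adjusted p of 0.0414. Without G1E replicate 2, only 1 of the 4 was called.

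Whether promoter and gene body moved apart was tested on their ratio with limma, as log2 of promoter CPM over gene-body CPM with 0.5 CPM added to each, in the 36 genes with a start peak that names no other gene. A lower ratio means less polymerase near the start relative to the gene body. At 24 h the ratio was higher in 2 and lower in 2, against 23.8% and 11.5% of 6615 genes tested. The median change was -0.09, beside 0.13 over all genes.

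Cdc25b and Ccnb1 had the lower ratios. The log2 ratio of Cdc25b was 0.59, 0.60 and 0.26 at 0 h, -0.43 and -0.34 at 13 h, and -0.74 and -0.64 at 24 h, a fall of 1.17 ± 0.17 (limma adjusted p = 0.000609). The log2 ratio of Ccnb1 fell by 0.97 ± 0.17 (limma adjusted p = 0.00151), and its promoter sum holds the upstream strand that fell. In both genes the 24 h libraries lay below each 0 h library. Both genes also hold dREG peaks inside the body. The sense entries there rose at 24 h by 3.61 ± 0.32 and 3.09 ± 0.38 in Cdc25b and by 1.24 ± 0.25 in Ccnb1. Reads of these entries can enter the gene-body count, and their part in the lower ratios was not tested.

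The higher ratios were those of Ttk and Espl1. The log2 ratio of Ttk was -0.88, -1.35 and -1.42 at 0 h and -0.42 and -0.60 at 24 h, a rise of 0.71 ± 0.21 (limma adjusted p = 0.0208). That of Espl1 was -1.68, -1.73 and -1.73 at 0 h and -1.25 and -1.21 at 24 h, a rise of 0.48 ± 0.14 (limma adjusted p = 0.0244). Both calls were lost without 0 h replicate 2 or 3 and without 24 h replicate 1 (Ttk adjusted p = 0.0544, 0.0733 and 0.131, Espl1 adjusted p = 0.0545, 0.0745 and 0.103), and that of Espl1 also without 24 h replicate 2 (adjusted p = 0.0595) and with the replicate number as a block (adjusted p = 0.0519). Both were lost too when promoters were scaled with the gene-body factors (adjusted p = 0.0632 for Ttk and 0.0975 for Espl1). Cdk1, whose promoter and body both fell, had a ratio difference of 0.08 ± 0.27.

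**Figure D4:**
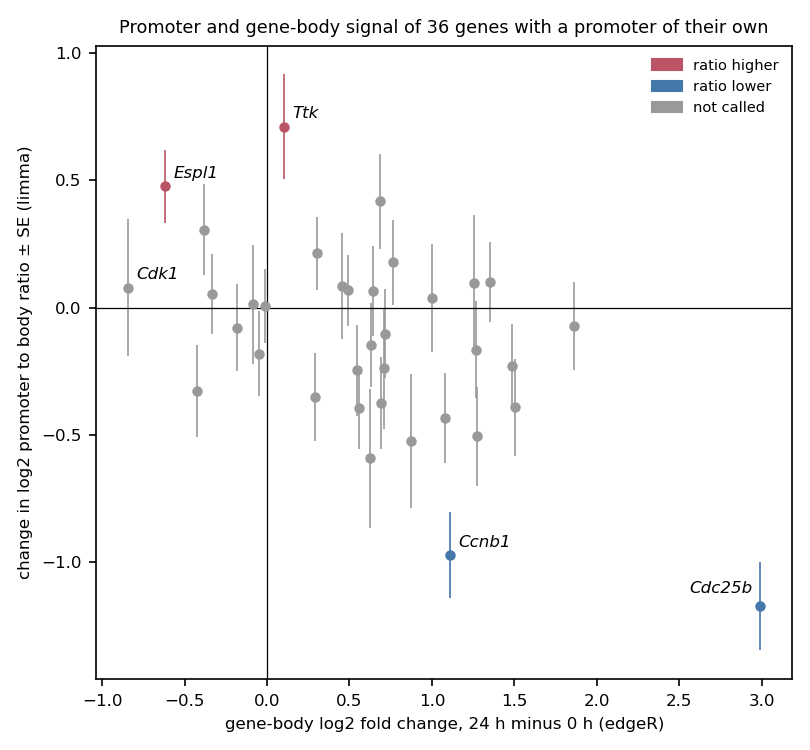
Change of the log2 promoter to body ratio ± SE (vertical axis, limma) against the log2 fold change of the gene body (horizontal axis, edgeR), 24 h minus 0 h, for 36 genes. Ccnb1 and Cdc25b (blue) lie below the other points at -0.97 and -1.17, Ttk and Espl1 (red) are called higher, and the body change is part of both axes.

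At 13 h the ratio of Cdc25b alone was called, with a fall of 0.87 ± 0.17 on the log2 scale (limma adjusted p = 0.0136), so that 0 genes were higher and 1 lower, against 5.61% and 4.04% of genes tested. At an unadjusted p below 0.05, 0 were higher and 4 lower. The Cdc25b call was lost without either 13 h replicate (limma adjusted p = 0.0873 and 0.05002) and with gene-body factors for the promoters (adjusted p = 0.122).

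A wider list of mitosis genes held calls in both directions. This list and the regulators below were chosen with earlier results of these data known. Of 114 further genes on a textbook list, 106 were tested, and 41 (38.7%) rose and 20 (18.9%) fell at 24 h, beside 29.0% and 30.7% of all tested genes, with a median of 0.24 beside -0.07. Fam83d, a spindle protein (2.54 ± 0.24), Cenpt, a kinetochore protein (2.51 ± 0.24), and the phosphatase Cdkn3 (2.45 ± 0.21) rose most. Trip13, an ATPase that disassembles the checkpoint complex (-1.81 ± 0.16), Sapcd2 (-1.40 ± 0.23) and Pkmyt1, a kinase that inhibits CDK1 (-1.30 ± 0.26), fell most.

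Among 24 regulators of cell-cycle genes, 10 (41.7%) rose and 8 (33.3%) fell at 24 h, beside the same 29.0% and 30.7%, and their median was 0.05. Cdkn1b, the CDK inhibitor p27, rose by 2.55 ± 0.23, Lin37, a MuvB subunit of DREAM, by 1.62 ± 0.20 and Tfdp2 by 1.05 ± 0.16. The E2F partner Tfdp1 (-1.70 ± 0.16), E2f1 (-1.63 ± 0.20) and E2f5 (-1.62 ± 0.14) fell most. Mybl2, the MYB protein of the MMB complex, fell by 1.11 ± 0.14 on the log2 scale at 24 h. Of the pocket proteins and partners of DREAM, Rbl2 rose (0.73 ± 0.19) and E2f4 fell (-0.34 ± 0.13, edgeR adjusted p = 0.0492), while Rbl1 (0.03 ± 0.13) and Lin9 (0.04 ± 0.13) did not pass.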

How the data were processed

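The deposited gene-body and dREG peak tables hold raw read counts of 9 libraries, per the file headers. BWA and the mm9 build are listed in the submitters' processing notes. No version, read-counting tool, strand setting or annotation is given in the sources used here, so overlapping and antisense genes are uncertain. The deposited peak table also gives each peak's position in a gene as a percent and a p-value from the authors' own test, which was not used.

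The count model was edgeR 4.0.16 under R 4.3.3 (TMM, default filter, 4 group means, robust quasi-likelihood test, 5 residual degrees of freedom, Benjamini-Hochberg over all 13825 genes or 35158 entries, threshold 0.05). Promoter to body ratios were tested with limma 3.58.1. The fits were also run on simulated counts drawn from the means and fitted spread of these data. Such counts cannot test the scaling or the spread between the real libraries. Entries at starts were given to a gene by the authors' overlap name, and their strand side by RefSeq's strand. DESeq2 1.42.0, other scalings, filters, pseudocounts and blocks and leaving out each library were the alternatives. The genes and lists were chosen with earlier results of these data known. Values in every library are given for the gene with the largest called change at 24 h in each role, every gene that fell at 24 h or was called in the comparisons of 24 h with 13 h or 0 h with G1E, and Cdk1, Foxm1, Plk1 and Aurkb. Among other genes and promoters the 3 largest called changes each way are named.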

Additional observations from a re-analysis of the deposited data

How the results depend on the processing

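Of 29 genes that rose at 24 h, 19 kept their call in every alternative run, and of 24 that rose at 13 h, 13 did. A library left alone in its group was assumed to vary like the other groups. Leaving out each library in turn gave 13 to 27 genes higher and 1 to 2 lower at 13 h, 22 to 33 and 2 to 5 (5 without 0 h replicate 1) at 24 h, 0 to 4 and 0 to 2 for 24 h against 13 h, and 0 to 2 lower for 0 h against G1E. For promoter entries it gave 12 to 28 higher and 0 to 2 lower at 13 h, 19 to 39 and 0 to 6 at 24 h, 0 to 1 lower for 24 h against 13 h, and 1 to 4 higher and 0 to 2 lower for 0 h against G1E. For ratios it gave 0 to 1 lower at 13 h and 0 to 3 higher and 2 to 3 lower at 24 h. The causes of the changes given next were not tested. With total counts 19 genes were higher and 12 lower at 24 h, against 18.9% and 42.4% of all tested genes. For 24 h against 13 h 0 were higher and 6 lower, against 4.64% and 22.3%. In that comparison 17.2% of all calls were rises in place of 48.3%. For that comparison DESeq2 called 5 higher, a fit of only the 2 groups 1 higher and 0 lower, and no filter 1 lower. At promoters DESeq2 called 1 lower for 24 h against 13 h. For 0 h against G1E, DESeq2's size factors gave 1 entry lower, and a fit of only the 2 groups gave 2 entries higher and 2 genes lower. With gene-body scaling factors 1 entry was lower at 24 h and 1 higher for 0 h against G1E, and the ratio calls became 0 lower at 13 h and 0 higher at 24 h. Replicate numbers were not taken to pair the samples. Same-numbered libraries of 0 h and 13 h correlated in their deviations at 0.459 and 0.444, but over the other pairs of groups the values ran from -0.15 to 0.16. Most of those other pairs come from different runs of library numbers, so they cannot decide whether 0 h and 13 h libraries were paired. With the replicate block 16 genes were higher and 1 lower at 13 h, 27 higher and 2 lower at 24 h, 1 higher and 1 lower for 24 h against 13 h, 0 lower for 0 h against G1E, and 1 ratio was higher at 24 h. With a block for runs of neighbouring library numbers, 1 gene and 3 entries were lower at 13 h, and 2 entries were lower at 24 h. For 24 h against 0 h this block rests on 0 h replicate 3, the only 0 h library in the run of the 24 h libraries. Under it 0 genes were higher and 0 lower for 24 h against 13 h, whose libraries share no run. For 0 h against G1E 1 entry was higher and 0 genes lower, and 2 ratios were lower at 13 h. With that block the sense entry of Pttg1 at 24 h turned from -0.12 to 0.79 (edgeR adjusted p = 0.0458). Over single genes and entries, 5328 values under an alternative stayed called or stayed not called, 210 lost the call and 96 gained it. Values not called in either run are among the 5328 and can differ in direction. Depth limits the Gas2l3 values, which rest on 2 reads at 24 h.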
